A study of Gallus gallus with 8 samples.

Results

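The cell cycle genes examined here are 47 named genes that drive DNA replication, mitosis, and the step from G1 to S phase, or that block this step. They were chosen by symbol from the deposited tables of all genes, and 46 of the 47 are listed there among 17775 genes, with *CDK4* not matched and not analysed here. The 46 genes comprise 12 S phase genes, 6 regulators of the G1 to S transition, 24 mitotic genes, and 4 inhibitors.

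RNA was sequenced from chick muscle tissues labelled as skeletal muscle myotubes. Myoblasts from the thighs of day 10 chick embryos were pre-plated to enrich for myoblasts, expanded, and seeded on gelatin hydrogels crosslinked with transglutaminase. Differentiation was induced at confluence by lowering the serum, and the labels name no drug, added cell type, or genetic change in either group. The labels separate the groups by culture time, with 5 tissues after 1 week (day 7 of differentiation, tissues 1-1 to 1-5) and 3 tissues after 3 weeks (day 21, tissues 3-1 to 3-3). The labels number the tissues but do not say from which harvests they came. The p-values therefore measure the spread between these tissues, and harvest and week cannot be told apart.

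Cells enter S phase when D-type cyclins and their kinases phosphorylate the retinoblastoma protein, which releases E2F factors that turn on genes for DNA replication. A later wave of genes then builds the spindle, condenses the chromosomes, and divides the cell. Inhibitors of the INK4 family bind the kinases that partner D-type cyclins, and inhibitors of the CIP/KIP family bind a wider set of cyclin and kinase complexes. Nuclei within differentiated myotubes are known to have left the cell cycle, whereas myoblasts and fibroblasts in the same dish can still divide. In bulk RNA, fewer cells of a type and less RNA per cell cannot be told apart.

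Levels after 3 weeks overlapped those after 1 week for 9 of the 12 S phase genes and 17 of the 24 mitotic genes. This was near the share among genes at large, of which 29.9% did not overlap. The largest change among all 46 genes was a rise of the inhibitor *CDKN2B*. Tested with edgeR's quasi-likelihood method, 7 of the 46 genes rose and 3 fell (adjusted p under 0.05), which is 21.7% of those examined. Among all 14311 genes tested, 23.5% passed the same threshold, 11.5% higher and 12.0% lower at week 3, so the share of cell cycle genes was close to that of genes at large. The genes that rose were *CCND1*, *CCND2*, *KIF20A*, *NCAPH*, *SMC4*, *CDKN1A*, and *CDKN2B*, and those that fell were *MCM4*, *RRM1*, and *CDKN1B*. The median log2 fold change of the 46 genes was 0.16, against −0.01 for all genes tested. A positive value was found for 30 of the 46, against 49.1% of all genes tested. Tissue 1-1 was the lowest of all 8 tissues for 22 of the 46, and the share over all genes was not computed. With the cutoffs the study used (unadjusted p under 0.05, change over 1.5-fold), 3 of the 46 genes were higher (*CDKN2B*, *KIF20A*, and *SMC4*) and 0 lower, against 7.22% higher and 7.39% lower among all genes in the same edgeR test. *CCND1* narrowly missed the 1.5-fold cutoff, at an edgeR log2 fold change of 0.584, and its ratio of mean FPKM-UQ was 1.515. At an unadjusted p below 0.05 alone, 11 of the 46 were higher and 3 lower, against 17.6% higher and 18.3% lower among all genes.

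**Figure D1:**
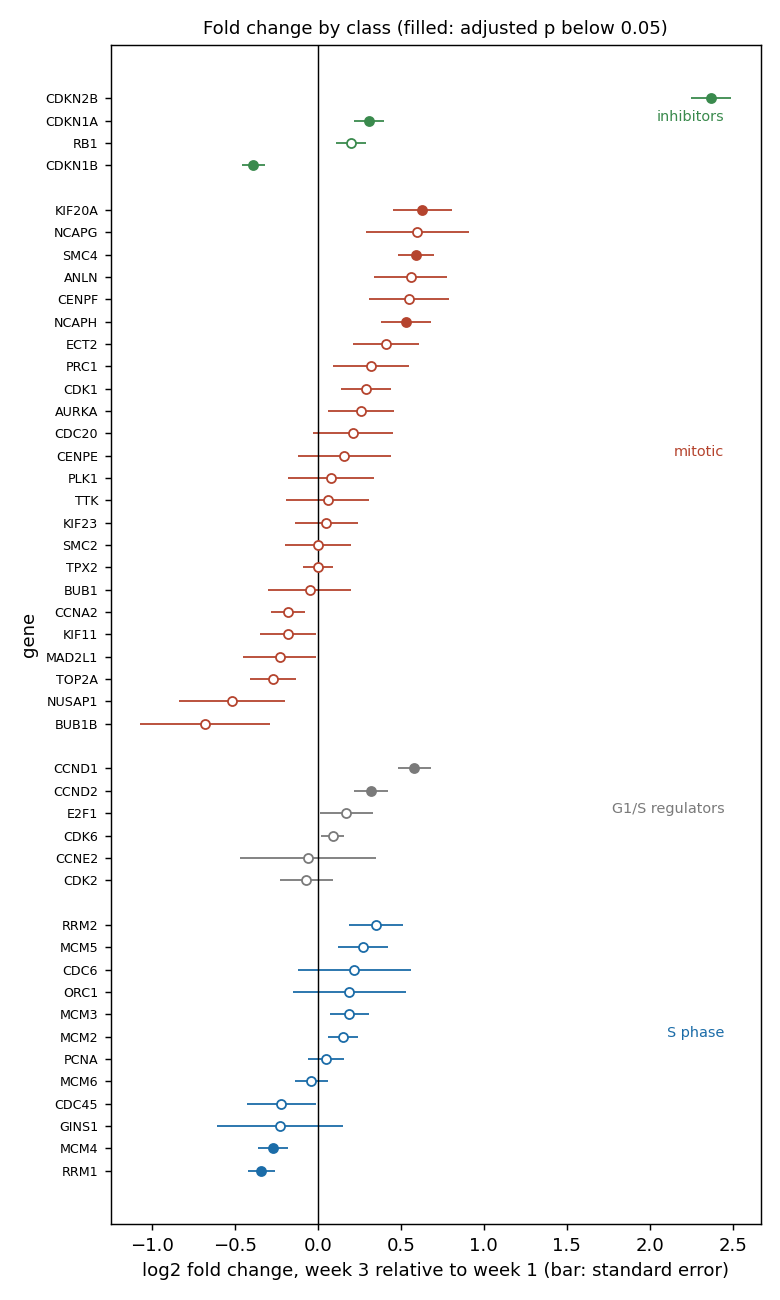
Log2 fold change of each cell cycle gene at week 3 relative to week 1 (horizontal axis, bars are standard errors), sorted within S phase, G1/S regulator, mitotic, and inhibitor genes, with filled points for an adjusted p below 0.05. *CDKN2B*, at 2.37, lies apart from the other genes, which range from −0.68 for *BUB1B* to 0.63 for *KIF20A*.

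The number of genes called depended on single tissues. Without tissue 1-1, 16 of the 46 genes passed the threshold, 11 higher and 5 lower, beside 38.6% of all genes tested. Leaving out 1-2, 1-4, or 3-3 left 6 called, leaving out 3-1 or 3-2 left 5, and leaving out 1-3 or 1-5 left 8 or 9. Among all genes, the share called with one of these other 7 tissues left out was 14.5% to 20.6%. *CDKN2B*, *CCND1*, *SMC4*, and *CDKN1B* remained called with each of the 8 tissues left out in turn.

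Levels are given in FPKM-UQ, a value the authors computed that is the estimated count, raised by 1 and scaled by a factor shared by all genes of a tissue. Gene length does not enter it, so values are compared between tissues for the same gene and not between genes. Total estimated counts ranged from 14368710 to 18902561 per tissue. Log2 fold changes are for week 3 relative to week 1, and adjustment of p-values was by Benjamini-Hochberg across every gene tested.

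The 4 genes grouped as inhibitors did not move together. The levels of *CDKN2B*, an INK4 inhibitor (chromosome Z, 78858726 to 78862136), were 6.80, 8.80, 9.63, 9.85 and 9.64 FPKM-UQ in tissues 1-1 to 1-5 and 43.3, 51.3 and 44.2 in tissues 3-1 to 3-3. The weeks were far apart, and the lowest value of all came from tissue 1-1. The mean rose from 8.94 ± 1.26 (SD, n = 5) to 46.3 ± 4.34 (SD, n = 3) FPKM-UQ, a ratio of 5.18 and a log2 fold change of 2.37 (SE 0.12, adjusted p = 2.9e-07). The log2 fold change stayed between 2.26 and 2.46 under all alternatives, including each tissue left out in turn.

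*CDKN2A*, which lies beside *CDKN2B* on the same strand (chromosome Z, 78846780 to 78856729) and encodes INK4 and ARF proteins in mammals, was not among the 46 genes but shares reads with *CDKN2B*. The estimated counts of both genes were fractional in tissues 1-4, 1-5, and 3-1, and in each their sum was a whole number within 0.01. This sum was 167, 250, 333, 320, and 260 counts in tissues 1-1 to 1-5 and 1242, 1144, and 1123 in tissues 3-1 to 3-3. The groups did not overlap in the sum, to which the split of reads between the genes does not matter. *CDKN2A* was at 4.25, 9.08, 10.7, 11.7 and 9.00 FPKM-UQ at week 1 and at 20.8, 21.2 and 22.2 at week 3, a log2 fold change of 1.25 (SE 0.22, adjusted p = 0.002). The next gene examined, *MTAP* (chromosome Z, 78808957 to 78841433), an enzyme of methionine salvage, was at 11.1, 13.0, 12.5, 11.4 and 10.8 and 14.7, 16.2 and 13.1 FPKM-UQ, a log2 fold change of 0.31 (SE 0.11, adjusted p = 0.075).

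Chick females carry 1 copy of the Z chromosome and males 2, and *CDKN2B*, *CDKN2A*, and *SMC2* are on this chromosome. The W chromosome, which only females carry, held 0.125% to 0.132% of the estimated counts at week 1 and 0.121% to 0.124% at week 3. The Z chromosome held 2.95% to 3.05% and 3.04% to 3.07%. The part of embryo sex in the level of *CDKN2B* was not tested.

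*CDKN1A*, a CIP/KIP inhibitor known as an early gene of cell cycle exit in mammalian muscle (chromosome 26, 1599230 to 1602397), was at 272, 311, 347, 343 and 364 FPKM-UQ in tissues 1-1 to 1-5 and at 403, 401 and 425 in tissues 3-1 to 3-3. All week 3 tissues were higher than all week 1 tissues, of which 1-1 was the lowest. The log2 fold change of 0.31 (SE 0.09, adjusted p = 0.025) corresponds to means of 328 ± 36.5 (SD, n = 5) and 409.5 ± 13.1 (SD, n = 3) FPKM-UQ. Its call was lost when tissue 1-2, 3-1, 3-2, or 3-3 was left out, with adjusted p-values up to 0.11. The counts of *CDKN1A* were fractional in all 8 tissues, so they are estimates and not whole reads.

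*CDKN1B*, the second CIP/KIP inhibitor examined (chromosome 1, 72102062 to 72105401), went the other way. Its levels were 110.4, 131, 123, 123 and 116 FPKM-UQ in tissues 1-1 to 1-5 and 91.2, 92.3 and 96.2 in tissues 3-1 to 3-3, again without overlap. It fell from 121 ± 8.03 (SD, n = 5) to 93.2 ± 2.62 (SD, n = 3) FPKM-UQ, a log2 fold change of −0.39 (SE 0.07, adjusted p = 0.002). The ratio of *CDKN1A* to *CDKN1B* within a tissue, a pair set side by side after the values were seen, was 2.37 to 3.15 at week 1 and 4.34 to 4.42 at week 3.

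*RB1*, the retinoblastoma protein that D-type cyclin kinases act on (chromosome 1, 170065610 to 170150031), was at 57.5, 46.6, 46.1, 49.0 and 44.3 FPKM-UQ at week 1 and 57.0, 55.5 and 57.3 at week 3. Tissue 1-1 was the highest of all 8, and the other week 1 tissues were below every week 3 tissue. The log2 fold change of 0.20 (SE 0.09, adjusted p = 0.12) did not pass the threshold. Without tissue 1-1 it was 0.27 (adjusted p = 0.0014), and over all alternatives the adjusted p ranged from 0.0014 to 0.31.

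**Figure D2:**
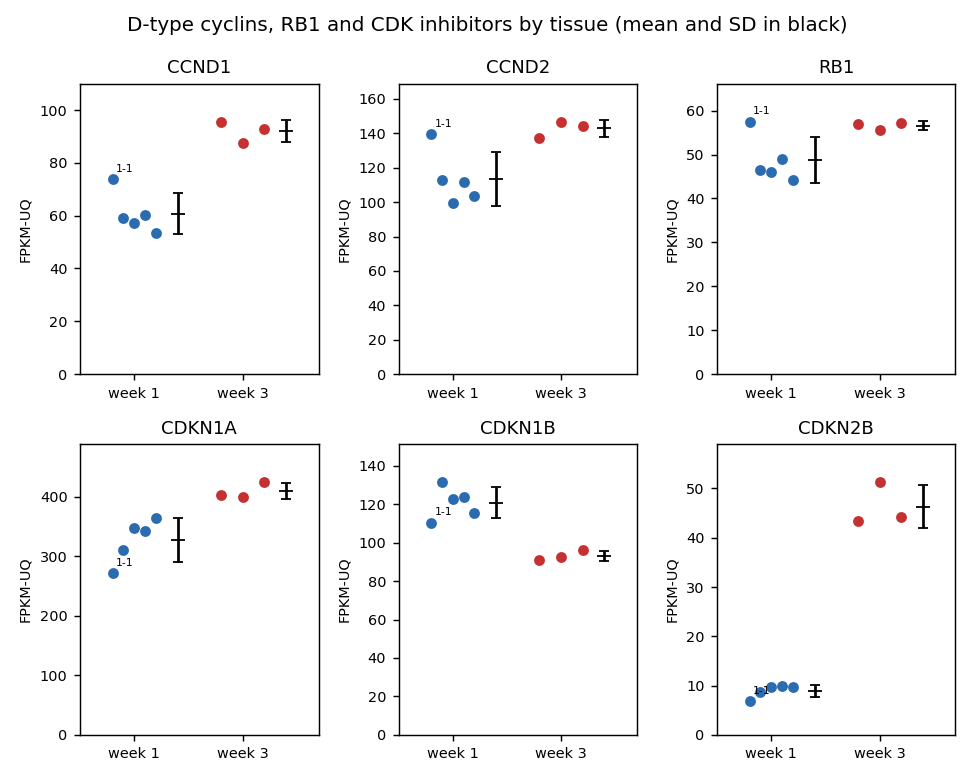
FPKM-UQ (vertical axes, from 0) of 2 D-type cyclins, *RB1*, and 3 inhibitors in each week 1 tissue (blue, n = 5) and week 3 tissue (red, n = 3), with the mean and SD in black and tissue 1-1 marked. *CCND1*, *CDKN1A*, and *CDKN2B* lie higher at week 3 in every tissue, *CDKN1B* lies lower, and tissue 1-1 overlaps week 3 for *CCND2* and *RB1*.

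Both D-type cyclins examined rose. *CCND1* (chromosome 5, 17778656 to 17793545), which is known to fall as mouse myoblast lines differentiate, was at 73.7, 59.3, 57.4, 60.1 and 53.3 FPKM-UQ in tissues 1-1 to 1-5 and at 95.6, 87.6 and 92.9 in tissues 3-1 to 3-3. The weeks did not overlap, although tissue 1-1 was the closest to week 3. The mean rose from 60.8 ± 7.71 (SD, n = 5) to 92.0 ± 4.09 (SD, n = 3) FPKM-UQ, a log2 fold change of 0.58 (SE 0.10, adjusted p = 0.0011). *ORAOV1*, which overlaps the end of *CCND1* on the opposite strand, had a log2 fold change of 0.16 (SE 0.07, adjusted p = 0.14), and the sources used here do not state whether counting used strand.

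*CCND2* (chromosome 1, 73471157 to 73515296) was at 139.6, 113, 99.7, 112 and 103 FPKM-UQ at week 1 and 138, 147 and 144 at week 3. Tissue 1-1 lay within the range of week 3, and the other week 1 tissues lay below it. The log2 fold change of 0.32 (SE 0.10, adjusted p = 0.038) was past the threshold, and this call, though not the size of the change (0.27 to 0.41), was lost with any single tissue other than 1-1 left out, with adjusted p-values up to 0.13. Without tissue 1-1 the log2 fold change was 0.41 (adjusted p = 3.3e-06, against a range of 3.3e-06 to 0.15 over all alternatives). *CCND3*, the remaining D-type cyclin and a companion gene outside the 46, was at 23.4, 25.6, 24.9, 28.0 and 23.5 FPKM-UQ at week 1 and 37.3, 38.2 and 37.1 at week 3. The weeks did not overlap, and its log2 fold change of 0.57 (SE 0.08, adjusted p = 0.00039) remained called under every alternative.

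The other regulators of the G1 to S transition were not called. *CDK6*, a kinase partner of D-type cyclins, was at 126, 111, 124, 128 and 121 FPKM-UQ at week 1 and 136, 131 and 126 at week 3, a log2 fold change of 0.09 (SE 0.07, adjusted p = 0.37). *CDK2*, the partner of E-type and A-type cyclins, had a log2 fold change of −0.07 (SE 0.16, adjusted p = 0.79), and *CCNE2*, a cyclin with only 6 to 26 counts per tissue, had a log2 fold change of −0.06 (SE 0.41, adjusted p = 0.94). The sign of both changed with single alternatives. *E2F1*, the transcription factor held by the retinoblastoma protein, was at 6.93, 9.72, 9.45, 7.83 and 11.2 FPKM-UQ at week 1 and 9.39, 11.1 and 10.3 at week 3. Its ranges overlapped, with a log2 fold change of 0.17 (SE 0.16, adjusted p = 0.47).

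The 12 S phase genes had a median log2 fold change of 0.10 and ranged from −0.34 to 0.35, with 0 higher and 2 lower at the adjusted threshold (16.7% called, against 11.5% higher and 12.0% lower among all genes). The genes that fell were *RRM1* and *MCM4*, and 1 more gene, *RRM2*, was higher at an unadjusted p below 0.05. Levels of the weeks did not overlap for these 3 genes, *RRM2* higher and the others lower, against 16.2% of all genes higher and 13.6% lower without overlap.

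*RRM1* and *RRM2* encode the large and the small subunit of ribonucleotide reductase, the enzyme that makes deoxyribonucleotides. *RRM1* (chromosome 1, 197157405 to 197175420) was at 51.1, 48.9, 58.7, 52.7 and 51.2 FPKM-UQ in tissues 1-1 to 1-5 and at 39.3, 40.9 and 45.9 in tissues 3-1 to 3-3, a log2 fold change of −0.34 (SE 0.08, adjusted p = 0.011). *RRM2* was at 11.4, 17.4, 19.6, 13.7 and 19.3 FPKM-UQ at week 1 and 21.4, 21.7 and 19.8 at week 3, a log2 fold change of 0.35 (SE 0.16, adjusted p = 0.14). The subunits thus had opposite signs, and the ratio of *RRM2* to *RRM1* within a tissue, chosen after the values were seen, was 0.224 to 0.377 at week 1 and 0.432 to 0.545 at week 3. The call of *RRM1* was lost without tissue 3-1 or 3-2, with adjusted p-values up to 0.067.

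*MCM2* to *MCM6* encode subunits of one helicase that unwinds DNA at replication forks, and they did not share a direction. *MCM4* (chromosome 2, 108001950 to 108013187) fell from 24.4, 26.8, 27.1, 23.6 and 24.8 FPKM-UQ in the week 1 tissues to 23.2, 20.3 and 20.0 in the week 3 tissues, a log2 fold change of −0.27 (SE 0.09, adjusted p = 0.048). This call was close to the threshold and was kept with 2 of the 8 tissues left out (1-1 or 3-1) and under 2 of the other 9 alternatives. *MCM2* was at 41.9, 31.5, 38.0, 36.9 and 36.0 FPKM-UQ at week 1 and 39.8, 41.9 and 42.5 at week 3, with overlap through tissue 1-1 only, with a log2 fold change of 0.15 (SE 0.09, adjusted p = 0.26). The log2 fold changes of *MCM3*, *MCM5*, and *MCM6* were 0.19, 0.27, and −0.04, with adjusted p-values from 0.22 to 0.83. The sign of *MCM6* changed under some alternatives, among them scaling by library size only. *HMOX1* lies within the interval of *MCM5* on the same strand and had a log2 fold change of −0.31 (SE 0.07, adjusted p = 0.0077). *HMOX1* had 2517 to 3282 estimated counts per tissue, against 113 to 248 for *MCM5*, and its part in the level of *MCM5* was not tested. Without tissue 1-1, *MCM2* and *MCM3* passed the threshold, at 0.20 (adjusted p = 0.037, against up to 0.46 over all alternatives) and 0.27 (adjusted p = 0.040, against up to 0.50).

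*PCNA*, the sliding clamp of DNA polymerases, was at 41.3, 56.8, 59.4, 52.4 and 55.4 FPKM-UQ at week 1 and at 50.1, 60.0 and 56.5 at week 3. Its lowest and second lowest values came from tissues 1-1 and 3-1, so the weeks overlapped throughout, with a log2 fold change of 0.05 (SE 0.11, adjusted p = 0.79). The origin licensing genes *CDC6* and *ORC1* and the helicase factors *CDC45* and *GINS1* had log2 fold changes from −0.23 to 0.22 with standard errors from 0.21 to 0.38. *CDC6*, *ORC1*, and *GINS1* had at most 52 counts in any tissue, and none of the 4 genes was called.

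The 24 mitotic genes had a median log2 fold change of 0.12 and ranged from −0.68 to 0.63. At the adjusted threshold 3 were higher and 0 lower, which is 12.5% of the class against 11.5% higher among all genes tested. For 7 of the 24 genes (29.2%) the lowest week 3 value exceeded the highest week 1 value, against 16.2% of all genes, and the reverse was seen for none of the 24, against 13.6% of all genes. The 7 genes were *CDK1*, *AURKA*, *NCAPH*, *SMC4*, *ECT2*, *ANLN*, and *PRC1*, of which *AURKA*, *ECT2*, and *PRC1* had only 21 to 62 counts per tissue. The listed interval of *PRC1* spans 1427 bases, the shortest of the class, and whether it holds the whole gene was not examined. Among 34 other mitotic genes described below, 3 (8.82%) were higher without overlap and 0 lower, so the larger share was not seen there.

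Condensin compacts chromosomes at mitosis, and 4 of its subunits were among the genes examined. *SMC4* (chromosome 9, 22313604 to 22345249) was at 10.0, 11.7, 12.4, 10.6 and 11.5 FPKM-UQ in tissues 1-1 to 1-5 and at 16.4, 18.7 and 16.0 in tissues 3-1 to 3-3, a log2 fold change of 0.59 (SE 0.11, adjusted p = 0.0026) that remained called under every alternative. *NCAPH* (chromosome 22, 3971808 to 3982439) was at 5.63, 5.60, 6.24, 5.02 and 6.57 FPKM-UQ at week 1 and 9.36, 8.56 and 7.39 at week 3, a log2 fold change of 0.53 (SE 0.15, adjusted p = 0.023). The counts of *NCAPH* were fractional in 6 of 8 tissues, and a gene on the opposite strand that overlaps its end had a log2 fold change of 0.04 (SE 0.14, adjusted p = 0.87). *SMC4* and *NCAPH* rose without overlap, but the call of *NCAPH* was lost without tissue 1-4, 3-1, or 3-2, with adjusted p-values up to 0.12. *NCAPG* had a log2 fold change of 0.60 (SE 0.31, adjusted p = 0.19) with 18 to 67 counts per tissue, and its listed interval spans 3 other genes. *SMC2*, the partner of *SMC4* on chromosome Z, was at 10.2, 19.6, 21.9, 13.4 and 18.4 FPKM-UQ at week 1 and 18.1, 16.2 and 16.1 at week 3, a log2 fold change of 0.00 (SE 0.20). The week 1 tissues were spread on both sides of week 3, with 1-1 and 1-4 below it. *TRIM59*, which overlaps the end of *SMC4* on the opposite strand, also rose, with a log2 fold change of 0.47 (SE 0.12, adjusted p = 0.017).

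Among genes for the spindle midzone and cytokinesis, *KIF20A*, a kinesin (chromosome 13, 10772874 to 10782720), was at 8.93, 9.28, 11.3, 10.7 and 16.1 FPKM-UQ at week 1 and 19.9, 15.3 and 17.5 at week 3. Tissue 1-5 overlapped week 3, and the other week 1 tissues were lower, with a log2 fold change of 0.63 (SE 0.18, adjusted p = 0.022). The call was lost without tissue 1-2, 1-4, 3-1, or 3-3 (adjusted p up to 0.11). The deposited table types *KIF20A* as a pseudogene, and its counts were fractional in all 8 tissues, so its level is uncertain. *SFXN1*, on the opposite strand at the end of *KIF20A*, had a log2 fold change of 0.17 (SE 0.08, adjusted p = 0.16). *ANLN*, which encodes the contractile ring protein anillin, was at 4.45, 9.01, 9.20, 7.49 and 11.4 FPKM-UQ at week 1 and 11.9, 12.8 and 12.2 at week 3, a log2 fold change of 0.56 (SE 0.22, adjusted p = 0.091). The weeks did not overlap, and without tissue 1-1, the lowest, the log2 fold change was 0.40 (adjusted p = 0.023, against a range of 0.023 to 0.22 over all alternatives). *ANLN* was also called without tissue 1-5 and with library size scaling alone.

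*ECT2* and *PRC1*, an activator of the contractile ring and a bundler of midzone microtubules, had log2 fold changes of 0.41 (SE 0.20, adjusted p = 0.18) and 0.32 (SE 0.23, adjusted p = 0.34) at 21 to 62 counts per tissue. *KIF23*, a kinesin of the same structure, had a log2 fold change of 0.05 (SE 0.19, adjusted p = 0.89). *RACGAP1*, the partner of the *KIF23* protein and a companion gene outside the 46, was at 3.33, 3.05, 3.09, 3.75 and 3.34 FPKM-UQ at week 1 and 7.58, 6.07 and 7.85 at week 3. Its log2 fold change of 1.12 (SE 0.16, adjusted p = 0.00053) remained called under every alternative, with values from 0.92 to 1.22.

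*CDK1* and *CCNA2* encode the main mitotic kinase and a cyclin of S phase and early mitosis. *CDK1* was at 5.49, 7.38, 8.78, 7.49 and 7.54 FPKM-UQ at week 1 and 8.82, 9.35 and 8.92 at week 3, with all week 3 tissues higher, and a log2 fold change of 0.29 (SE 0.15, adjusted p = 0.20). *CCNA2* was at 16.5, 17.6, 18.7, 18.5 and 18.8 FPKM-UQ at week 1 and 14.7, 18.3 and 15.4 at week 3, with overlap and a log2 fold change of −0.18 (SE 0.10, adjusted p = 0.25). Neither passed the threshold under any alternative.

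*TOP2A*, the topoisomerase of dividing cells, was at 17.3, 25.4, 25.2, 21.9 and 28.0 FPKM-UQ in tissues 1-1 to 1-5 and at 17.8, 21.4 and 20.1 in tissues 3-1 to 3-3. Tissue 1-1 was the lowest of all 8, and the other week 1 tissues were above every week 3 tissue. The log2 fold change of −0.27 (SE 0.14, adjusted p = 0.20) became −0.36 without tissue 1-1 (adjusted p = 0.0056, against a range of 0.0056 to 0.47 over all alternatives). *NUSAP1*, a spindle protein, had a log2 fold change of −0.52 (SE 0.32, adjusted p = 0.27), which became −0.68 without tissue 1-1 (adjusted p = 0.025, against up to 0.60 over all alternatives).

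*CDC20*, which activates the ubiquitin ligase that ends mitosis, was at 2.75, 4.75, 4.18, 3.14 and 4.55 FPKM-UQ at week 1 and 5.67, 3.67 and 4.07 at week 3, and the ranges overlapped, with a log2 fold change of 0.21 (SE 0.24, adjusted p = 0.58). The spindle checkpoint genes *BUB1*, *BUB1B*, *MAD2L1*, and *TTK* had log2 fold changes of −0.05, −0.68, −0.23, and 0.06, with adjusted p-values from 0.24 to 0.91. *BUB1B* had only 12 to 33 counts per tissue, and its standard error was 0.39. The mitotic kinases *PLK1* and *AURKA* had log2 fold changes of 0.08 (SE 0.26) and 0.26 (SE 0.20). The kinetochore genes *CENPE* and *CENPF*, at 0.16 and 0.55, and the spindle genes *TPX2* and *KIF11*, at 0.00 and −0.18, were also not called. *TPX2*, with 424 to 584 counts per tissue and a standard error of 0.09, was the most precisely measured gene of the class and had means of 30.5 ± 2.07 (SD, n = 5) and 30.9 ± 2.38 (SD, n = 3) FPKM-UQ.

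**Figure D3:**
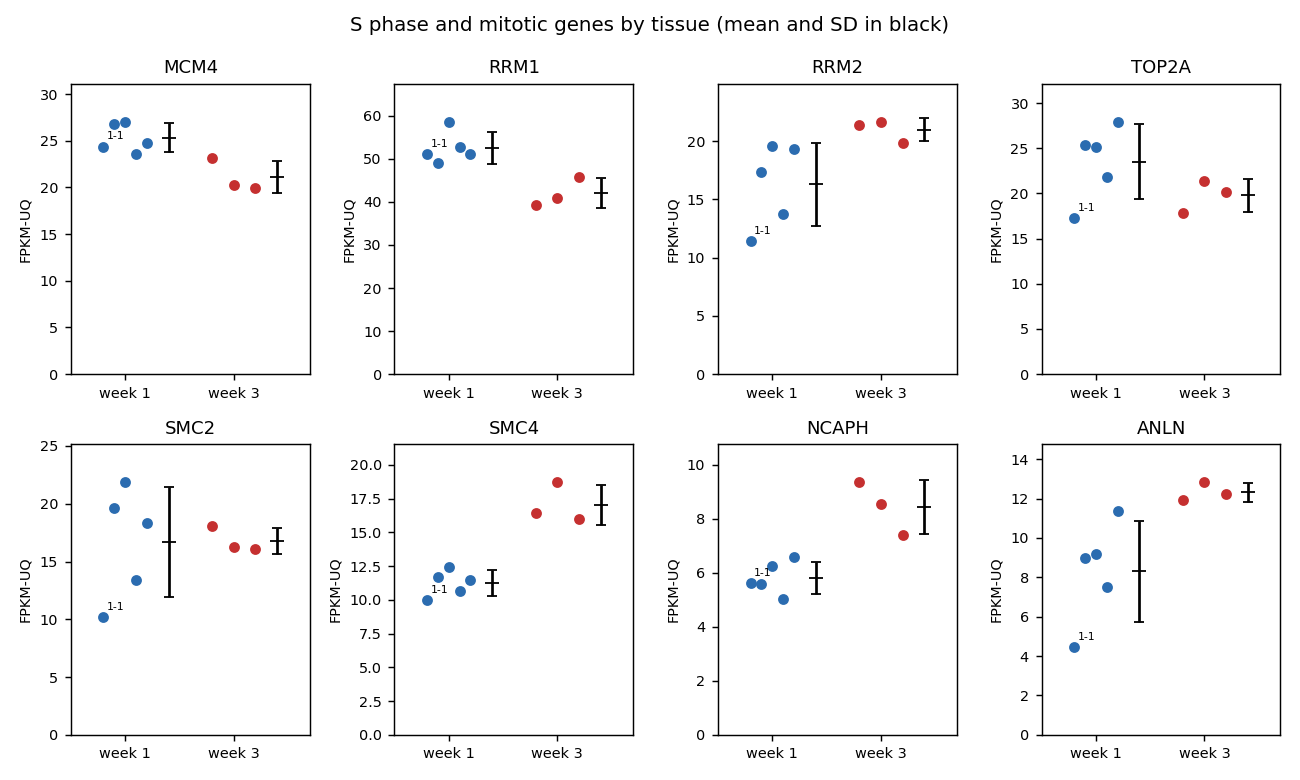
FPKM-UQ (vertical axes, from 0) of 3 S phase genes and 5 mitotic genes in each week 1 tissue (blue, n = 5) and week 3 tissue (red, n = 3), with the mean and SD in black and tissue 1-1 marked. *RRM1* and *MCM4* lie lower and *RRM2*, *SMC4*, *NCAPH*, and *ANLN* higher at week 3 without overlap, whereas *TOP2A* and *SMC2* overlap between the weeks.

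Much of the spread of the replication and mitotic genes lay among the week 1 tissues. Other genes, such as the fibroblast marker *COL1A1* (SD 1891 FPKM-UQ at week 1 and 144 at week 3), also spread more at week 1, though not all did. The share over all genes was not computed. For each gene, log2 FPKM-UQ was centred on its mean over the 8 tissues, and these values were averaged over the class. For the mitotic genes the average was −0.42, 0.06, 0.05, −0.21, and 0.20 in tissues 1-1 to 1-5 and 0.07, 0.12, and 0.12 in tissues 3-1 to 3-3. The week 3 tissues thus fell within the range of the week 1 tissues. For the S phase genes the average was −0.25, 0.00, 0.17, −0.20, and 0.17 at week 1 and 0.10, 0.02, and −0.02 at week 3. In both classes tissues 1-1 and 1-4 were the lowest and 1-5 was the highest or tied for it. Among the week 1 tissues, 1-1 held the lowest value of 15 of the 24 mitotic genes and 5 of the 12 S phase genes, and 1-5 held the highest value of 12 and 4. Among the S phase genes, 1-3 most often held the highest value (6 of 12), and 1-2 held the lowest of 4. None of these counts by tissue was computed over all genes.

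**Figure D4:**
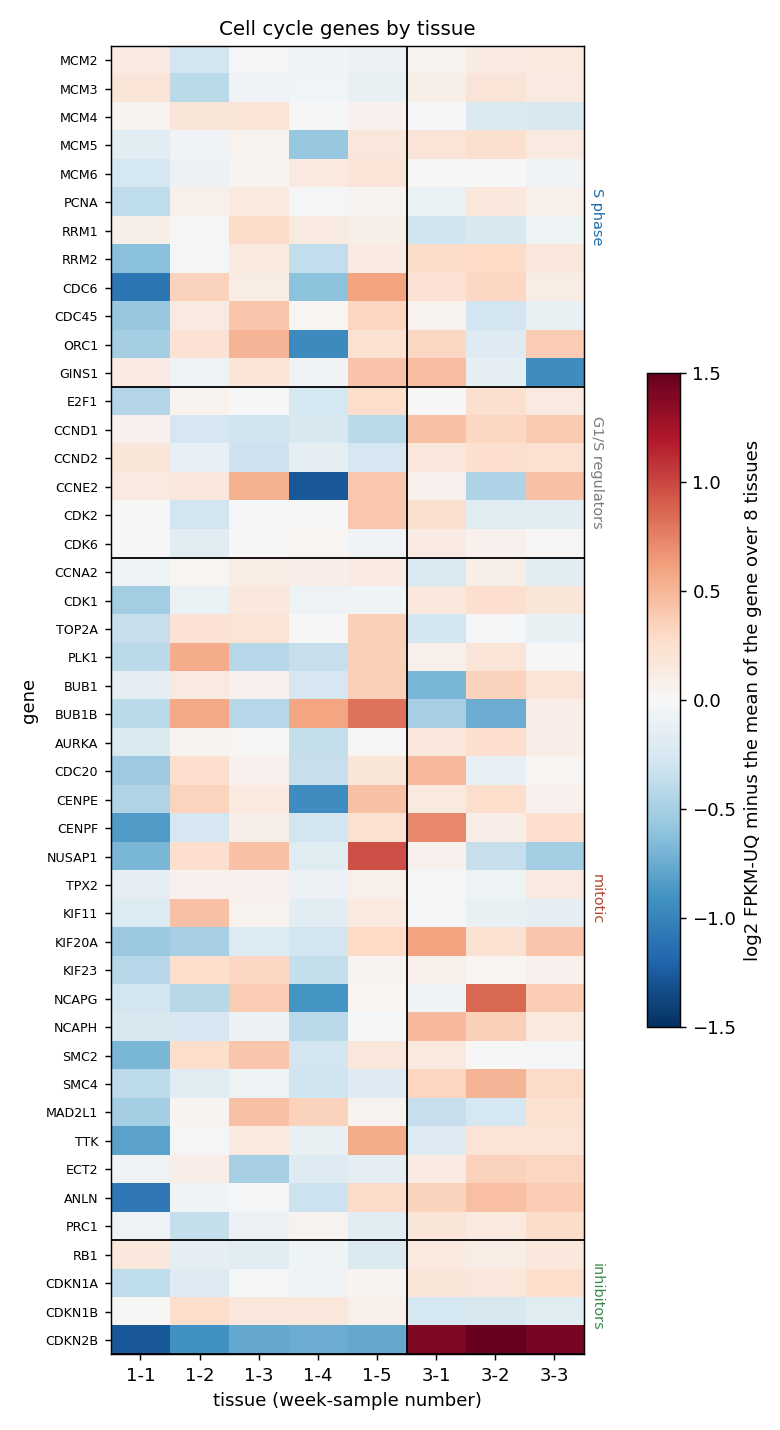
Log2 FPKM-UQ of the 46 genes (rows, by class) in the 8 tissues (columns), centred on the mean of each gene, with red above and blue below the mean. Mitotic genes are mostly blue in tissue 1-1, and *CDKN2B* is blue in all week 1 tissues and red in all week 3 tissues.

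**Figure D5:**
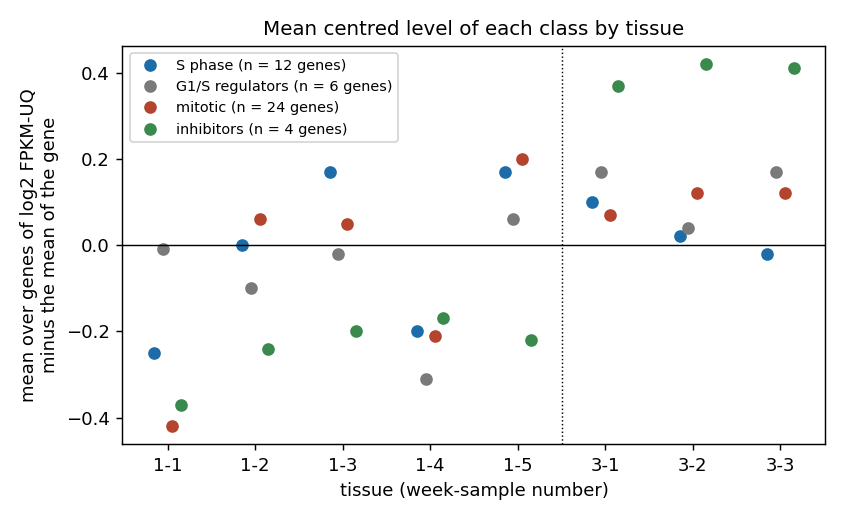
Mean over the genes of each class of the centred log2 FPKM-UQ (vertical axis) in each tissue (horizontal axis). S phase and mitotic genes span −0.42 to 0.20 among the week 1 tissues and −0.02 to 0.12 among the week 3 tissues, and the inhibitor mean, −0.37 to −0.17 at week 1 and 0.37 to 0.42 at week 3, is set largely by *CDKN2B*.

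Markers of cells other than myotubes were detected, and several moved between the weeks. Among all genes tested, 11.5% were called higher and 12.0% lower at week 3. Of 6 myoblast markers, 3 fell and 0 rose, and *PAX7* and *MYF5*, markers of muscle progenitors, had log2 fold changes of −2.31 (SE 0.35) and −3.08 (SE 0.36). Their summed level was 974 to 1279 FPKM-UQ at week 1 and 919 to 959 at week 3, most of it from the remaining 4 markers. Of 9 fibroblast markers tested, 5 fell, with *PDGFRA* at −1.60 (SE 0.20), and 2 rose, *POSTN* at 0.49 (SE 0.07) and *FAP* at 0.27 (SE 0.08). The sum of the fibroblast markers was 20130 to 31180 FPKM-UQ at week 1 and 22450 to 23160 at week 3, most of it from *COL1A1*, *COL1A2*, and *COL3A1*. *PDGFRA* was at 16.6, 31.4, 31.5, 30.4 and 31.0 FPKM-UQ in tissues 1-1 to 1-5. Tissue 1-1, low in mitotic genes, was the lowest week 1 tissue for every fibroblast marker tested except *LUM*. Tissue 1-4, the next lowest in mitotic genes, was the lowest for none of these markers and the highest week 1 tissue for *COL1A2* (9172 FPKM-UQ). Such rankings of tissues were not computed over all genes. Tissue 1-1 was the highest week 1 tissue for all 6 myoblast markers, *PAX7* among them. Of 5 macrophage markers, 4 fell, and their sum was 57.0 to 102.1 and 35.4 to 37.7 FPKM-UQ. Of the endothelial markers, *PECAM1* fell by 0.53 on the log2 scale (SE 0.10, adjusted p = 0.0035), 0 of the 4 tested rose, *TEK* was at 0 counts in at least 1 tissue, and their summed level was 55.1 to 62.1 FPKM-UQ at week 1 and 46.4 to 53.8 at week 3. Of 6 myotube markers tested, 1 (*ACTA1*) fell and 0 rose, 4 of 6 had negative values, and the median log2 fold change was −0.20. *MYOG*, a myogenic factor of differentiation, had a log2 fold change of 0.15 (SE 0.06, adjusted p = 0.11), and the troponin genes *TNNT3* and *TNNC2* were at −0.26 (adjusted p = 0.083) and −0.31 (adjusted p = 0.081). The summed myotube level was 13550 to 20770 FPKM-UQ at week 1 and 13090 to 13490 at week 3. The part of these other cells in the levels of the cell cycle genes was not tested.

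Further genes of the same pathways, in lists compiled beside the 46, were called in 14.3% (replication), 5.88% (mitotic), 20.0% (inhibitors and checkpoints), and 18.2% (G1/S) of the genes tested, against 23.5% of all genes. Of 42 other replication genes tested, 4 rose and 2 fell, with a median log2 fold change of 0.08. *TK1*, thymidine kinase, rose by 0.50 (SE 0.14), *DBF4*, the activator of a replication kinase, by 0.45 (SE 0.14), and *POLA1*, the catalytic subunit of the priming polymerase, by 0.35 (SE 0.08) on the log2 scale. *DNMT1*, the maintenance DNA methyltransferase, fell by 0.40 (SE 0.08) and remained called under every alternative. *ORC4*, an origin recognition subunit, rose by 0.37 (SE 0.11) and *POLD3*, a polymerase subunit, fell by 0.27 (SE 0.08).

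Of 34 other mitotic genes tested, 2 rose and 0 fell, with a median of 0.08, and beside *RACGAP1* the gene that rose was *CDC25B*, a phosphatase that activates mitotic kinases (log2 fold change 0.35, SE 0.09). Of 50 genes named for this list, 35 were matched by symbol, and *MKI67*, *AURKB*, and *CCNB2* were among those not matched. The list is not complete, and *CCNB1*, a mitotic cyclin, and *CEP55*, a gene of the last step of cytokinesis, are not in it. Named after their values were seen, they rose by 0.39 (adjusted p = 0.0375) and 1.07 (adjusted p = 0.0406) on the log2 scale. Of 15 other inhibitor and checkpoint genes, 2 rose and 1 fell. *BTG2*, an antiproliferative gene, was at 68.9, 92.7, 93.9, 92.2 and 83.1 FPKM-UQ at week 1 and 124, 122 and 126 at week 3, without overlap (log2 fold change 0.51, SE 0.09). *GADD45A*, a stress gene, had a log2 fold change of −0.23 (SE 0.08, adjusted p = 0.049), and this call was lost under most alternatives (adjusted p up to 0.22). Of 22 other G1/S regulators, 2 rose and 2 fell, with *MYC* at 0.36 (SE 0.09) beside *CCND3*, and *MNAT1* and *TFDP2* at −0.31 (SE 0.10) and −0.26 (SE 0.08). Of these list genes, *GADD45A*, *ORC4*, *DBF4*, *TK1*, *POLD3*, *MNAT1*, and *TFDP2* lost their call with 3 or more of the 8 tissues left out in turn.

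Each gene was also put to an exact permutation test of FPKM-UQ, two-sided, across 56 ways to split the tissues. In this exact permutation test, which doubles the smaller tail, the 14 of the 46 genes whose weeks did not overlap had p = 0.0357. That is the smallest value this test can give for 5 tissues against 3, and it follows from the lack of overlap alone. With 46 such tests none could pass a correction. Among all genes tested, 29.9% did not overlap between the weeks.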

How the data were processed

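RNA of 5 week 1 and 3 week 3 chick muscle tissues was sequenced by the authors on an Illumina NovaSeq and processed in Partek Flow. The submitters' processing notes name STAR 2.7.3a and the genome build GRCg6a, and gene positions were read from the deposited counts. The counting method and its use of strand are not given in the sources used here. The authors deposited estimated counts per gene for 17775 genes, of which 80.98% were whole numbers, and a normalized signal that they call FPKM-UQ for 15394 genes.

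After rounding, the estimated counts entered edgeR 4.0.16 (quasi-likelihood test, TMM factors, filterByExpr) in R 4.3.3 over 14311 genes, with Benjamini-Hochberg adjustment over all of them. The standard error was the size of the log2 fold change divided by the square root of F. Permutation tests used scipy 1.17.1, and figures matplotlib 3.10.9. Alternatives were DESeq2 1.42.0, upper-quartile factors, library size alone, other count filters, a replicate block, limma 3.58.1 on log2 FPKM-UQ, and each tissue left out. The edgeR, DESeq2, and limma steps were also run on simulated data, and the outcome of that run is not given here.

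The genes and lists were chosen with earlier results of these data known. Values in every tissue are given for genes called at an adjusted p below 0.05 and for a fixed set of representative genes, and in addition for *ANLN*, *CDK6*, *SMC2*, the companion genes *CCND3*, *RACGAP1*, and *BTG2*, the marker *PDGFRA*, and the genes beside *CDKN2B*, which were added after values had been seen. Other genes named are those called, at most 5 per list and direction, with *CCNB1* and *CEP55* added later. Sequences are not shown, and 1 list of cell type markers is not reported here. Whether the p-values cover differences between harvests is not known, because the labels do not name the harvests.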

Additional observations from a re-analysis of the deposited data

Results flagged for a closer look

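Among the 5 week 1 tissues, 112 sets of values were examined for a single tissue set apart (the 46 cell cycle genes, the companion and neighbouring genes, the markers, and summed levels of marker lists). A tissue counted as set apart where its gap to the nearest other tissue, divided by the range, was above Dixon's critical value of 0.71, which chance exceeds in about 1 of 20 sets. None of the 46 cell cycle genes met this, and 5 markers did. The 112 sets come from the same 5 tissues and are not independent, so this count cannot be judged against the rate of 1 of 20. Tissue 1-1 was the lowest for *PDGFRA* (16.6 FPKM-UQ, 0.929 of the range) and *COL3A1* (3036 FPKM-UQ, 0.87 of the range), both fibroblast markers. It was the highest for *CHRNA1*, a subunit of the acetylcholine receptor (186 FPKM-UQ, 0.832 of the range), and *CDH5*, an endothelial cadherin (16.2 FPKM-UQ, 0.84 of the range). Other markers of the same lists went the other way, with tissue 1-1 the lowest at week 1 for *PECAM1*, *ERG*, *ACTA1*, and *TNNC2*. For the remaining myotube and endothelial markers it was neither the highest nor the lowest. Tissue 1-2 was the lowest for *MYOG* (158.0 FPKM-UQ, 0.834 of the range). For *TNNT3*, *TNNC2*, *ACTA1*, and *DES*, myotube markers of the same list, tissue 1-2 was instead the highest of the week 1 tissues. Tissue 1-1 was also the lowest of the week 1 tissues for 24 of the 46 cell cycle genes, a count not computed over all genes. The part of the marked differences in this was not tested.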

How the results depend on the processing

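The call of 10 of the 46 cell cycle genes moved to between 5 and 16 with a single tissue left out, and the count over all genes from 3367 to between 2119 and 5498. Under upper-quartile factors, library size alone, DESeq2, other count filters, and limma, 9 or 10 of the 46 were called, 9 or 10 of them shared with the test in the report, and *MCM4* was the only call lost and *ANLN*, with library size alone, the only call gained. With only genes that reached at least 50 counts in at least 3 tissues, 40 of the 46 were tested.

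A replicate block left 2073 genes and 7 of the 46 called, and *CCND2*, *MCM4*, and *NCAPH* lost their call. Deviations of same-numbered tissues from the mean of their week correlated at 0.025, −0.010, and 0.003. The labels link these tissues by number only, and the correlations cannot tell whether they shared a harvest. The sign of genes near 0 was reversed with library size alone for *MCM6* (0.03), *CCNE2* (0.01), and *BUB1* (0.02), with the block for *MCM6* (0.08), *CDK2* (0.05), and *KIF23* (−0.01), and with limma on log2(FPKM-UQ + 0.1) for *CCNE2* (0.01). With single tissues left out, log2 fold changes ranged from −0.10 to 0.01 for *MCM6*, −0.03 to 0.12 for *PCNA*, −0.67 to 0.08 for *GINS1*, −0.29 to 0.15 for *CCNE2*, −0.23 to 0.03 for *CDK2*, −0.02 to 0.25 for *PLK1*, −0.25 to 0.21 for *BUB1*, −0.01 to 0.33 for *CDC20*, −0.04 to 0.14 for *KIF23*, and −0.09 to 0.23 for *TTK*. None of these was called. The causes were not tested. Among the 15 companion genes called, no sign changed under any alternative.

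The genes with few counts, *GINS1*, *CCNE2*, *BUB1B*, *ORC1*, and *CDC6*, had standard errors of 0.34 to 0.41. Their week 1 coefficients of variation were above the error of counting for *CDC6* (43.1% against 17.2%), *ORC1* (37.6% against 18.8%), *BUB1B* (37.3% against 20.2%), and *CCNE2* (36.9% against 24.0%), and below it for *GINS1*. The parts of depth and of other differences between tissues were not separated.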

Other observations

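The spread between the week 1 tissues can be set against the error of counting alone, which is 1 divided by the square root of the mean count. For *CDKN1A* the coefficient of variation of the week 1 tissues was 11.2%, against a counting error of 1.43%, and for *SMC2* it was 28.6%, against 6.33%. For *ANLN* it was 30.9%, against 9.02%, and without tissue 1-1 it was 17.3%. *PRC1*, at 10.2% against 19.4%, and *GINS1*, at 14.6% against 26.9%, spread by less than the counting error.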
